A study of Mus musculus with 9 samples.

Results

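What remains of an ischemic kidney injury under treatment with the compound TJ0113 was measured in mouse renal cortex by messenger RNA sequencing, as the difference between 3 libraries of clamped, TJ0113-treated mice and 3 libraries of sham-operated mice. Levels are in FPKM, fragments scaled to gene length and library size. Every gene that averaged 0.5 FPKM or more over the 9 libraries of the study was used, which is 15453 of 34669 genes, in 6 of the 9 libraries. Every library came from a male, wild-type C57BL/6 mouse 10 weeks old. In the TJ0113 group both renal pedicles were clamped for 30 min, which is called bIRI for bilateral ischemia and reperfusion, and the compound was given by gavage each day from 3 days before surgery until sacrifice on day 14, at a dose that the sources used here do not give. The vehicle group had the same clamping and gavage schedule, with vehicle only. Sham mice were operated on in the same way and their vessels were not clamped. For sham mice neither gavage nor a day of sampling is given, so clamping, gavage and compound cannot be told apart in a difference between the TJ0113 and sham groups. Whether the 3 mice of a group came from separate litters or surgery days is not given either, and the p-values measure only the spread between these libraries.

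Ischemia kills or strips cells of the proximal tubule, the segment that reabsorbs most filtered solutes and runs on fatty acid oxidation. Surviving cells lose their transporters, divide and reseal the tubule, and cells that do not regain their mature state keep secreting inflammatory and scar-forming signals, a course known as failed repair, by which an acute injury becomes chronic kidney disease. The series title names TJ0113 together with this course, tubule mitochondria and ferroptosis, a form of cell death in which iron drives the peroxidation of membrane lipids.

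Implied depth, read from the equal steps on which low FPKM values fall, was 31200000 to 42700000 fragments (read pairs) per library. On the log2(FPKM + 1) scale the SD between replicates of the median gene was 0.187 in the TJ0113 group, 0.269 in the vehicle group and 0.09 in sham. Cortex markers were present in all 9 libraries: the proximal tubule phosphate transporter Slc34a1 had 1245, 1117 and 765 FPKM with TJ0113, 569, 1183 and 574 with vehicle and 1408, 1539.9 and 1335 in sham. Library 2 of the TJ0113 group had more distal nephron RNA than the other 2 of its group, which is given beside the results it touches. On the first principal component TJ0113 libraries 1 to 3 were spread out, at 25.4, 4.5 and 51.1, which does not single out library 2. The vehicle libraries were spread as well, with library 2 at -8 against 30.8 and 70.6 for the others. Where library weights were fitted, vehicle library 2 had the lowest weight of all 9 (0.18). Fat marker genes differed between libraries without following the groups. Their 10 listed members summed to 26.6, 93.7 and 17.3 FPKM with TJ0113, 96.2, 17.5 and 175 with vehicle and 25.4, 375 and 23.9 in sham. The adrenal enzymes Cyp11b1 and Cyp21a1 and the muscle gene Ckm stayed under 0.1 FPKM in all 9 libraries. Slc14a2, a marker of the inner medulla, differed widely between libraries. It had 0.586, 6.59 and 4.49 FPKM with TJ0113, 11.96, 1.73 and 7.45 with vehicle and 16.9, 3.81 and 9.08 in sham.

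TJ0113-treated cortex still differed from sham over a wide range of genes. By limma on log2(FPKM + 1), with Benjamini-Hochberg adjustment over all genes and a threshold of 0.05, 5384 genes were called, 34.8 percent of those tested. Of these, 4469 were higher (28.9 percent) and 915 lower (5.92 percent). Counts for gene lists below are to be read against these shares. The TJ0113 and sham libraries did not overlap in 10062 genes, 65.1 percent. The median gene lay 0.26 higher with TJ0113 than in sham on the log2 scale. Changes from sham are therefore given below as log2 change relative to the median gene, with the standard error (SE) of the fit. On that scale 878 called genes were at least 1 higher and 405 at least 1 lower. Calls and p-values test the change as fitted, before the level of the median gene is subtracted, and not the relative value printed beside them. The fit shared 1 estimate of the spread of a gene among all groups. Leaving out any library, also a vehicle one, therefore changed the spread used for the calls. In bulk tissue, more or fewer cells of a type and more or less RNA per cell cannot be told apart. The balance of directions depended on scaling. Median-ratio scaling gave 2672 higher and 3165 lower genes, with the median gene at -0.045, and quantile normalization gave 2391 higher and 2854 lower, with the median gene at -0.042.

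**Figure D1:**
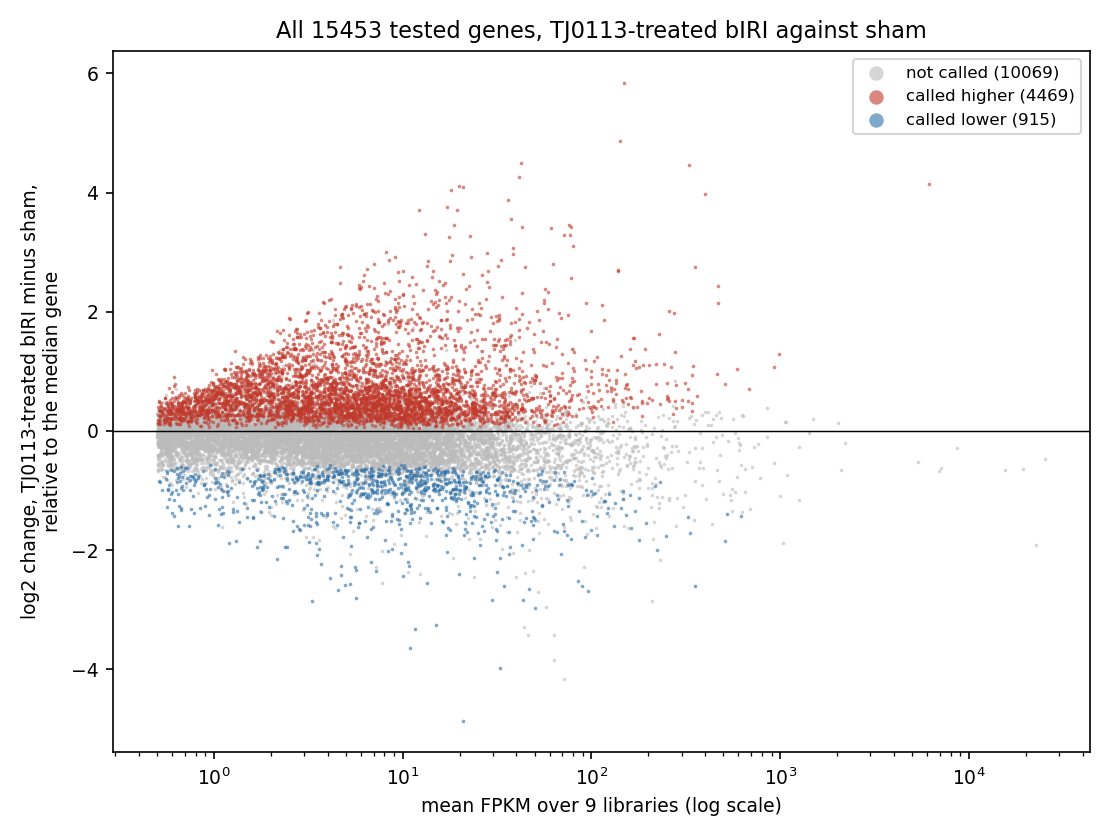
Each point is 1 of the 15453 tested genes, with its mean FPKM over 9 libraries on a log axis and its log2 change between TJ0113-treated bIRI and sham, relative to the median gene, on the vertical axis. The 4469 genes called higher and the 915 called lower are coloured; low genes reach only small changes because 1 is added to FPKM before the log.

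The largest rises included genes of tubular damage, scar matrix and innate immunity. Havcr1 encodes KIM-1, a phosphatidylserine receptor that injured proximal tubule cells put on their surface. It had 305, 81.1 and 229 FPKM in the TJ0113 libraries, 328, 119.6 and 266 in the vehicle libraries and 1.67, 1.34 and 1.82 in sham. Every clamped library was far above every sham library, and TJ0113 library 2 was the lowest of the 3 treated ones. Its log2 change was 5.84 ± 0.49 (SE; limma, Benjamini-Hochberg adjusted p = 0.00287). Lcn2, which encodes the iron-siderophore carrier NGAL, had 44.6, 23.5 and 93.9 FPKM with TJ0113 against 1.33, 0.454 and 1.6 in sham, a log2 change of 4.26 ± 0.56 (SE). Spp1 encodes osteopontin, a secreted adhesion protein of tubule cells and macrophages, and was the most abundant of these genes. It had 9978, 3589 and 13371 FPKM with TJ0113 and 376, 361 and 374 in sham (log2 change 4.14 ± 0.57, SE). The groups did not overlap for either gene.

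Complement component C3 had 203, 97.9 and 244 FPKM with TJ0113 and 2.87, 8.14 and 2.29 in sham (log2 change 4.86 ± 0.48, SE). Lyz2, the lysozyme of myeloid cells, had 296, 272 and 560.0 FPKM with TJ0113 and 16.99, 10.8 and 10.4 in sham (4.47 ± 0.58), and Ccl2, the chemokine that draws monocytes, 35.3, 14.7 and 34.03 FPKM with TJ0113 and 0.551, 0.229 and 0.202 in sham (4.10 ± 0.47). Among matrix genes, Col1a1, a chain of type I collagen, had 43.5, 37.4 and 70.5 FPKM with TJ0113 and 2.05, 1.77 and 1.62 in sham (3.88 ± 0.48). Timp1, an inhibitor of matrix metalloproteinases, had 30.4, 10.9 and 46.02 FPKM with TJ0113 against 0.338, 0.294 and 0.291 in sham (4.05 ± 0.54). Mgp, the matrix Gla protein that limits calcification, had 656, 513 and 683 FPKM with TJ0113 against 38.9, 28.3 and 28.3 in sham (3.98 ± 0.52). The remaining 3 of the 12 largest rises were Aoc1, a diamine oxidase (4.50 ± 0.38), Serpina10, an inhibitor of coagulation proteases (4.12 ± 0.45), and Aldh1a2, which makes retinoic acid (3.75 ± 0.48). In all 12 the TJ0113 and sham libraries were separate, which the rule for naming them required. Adjusted p (limma, Benjamini-Hochberg) lay between 0.00287 for Havcr1 and 0.00608 for Spp1, and all 12 kept their calls in each of the 22 other settings run.

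**Figure D2:**
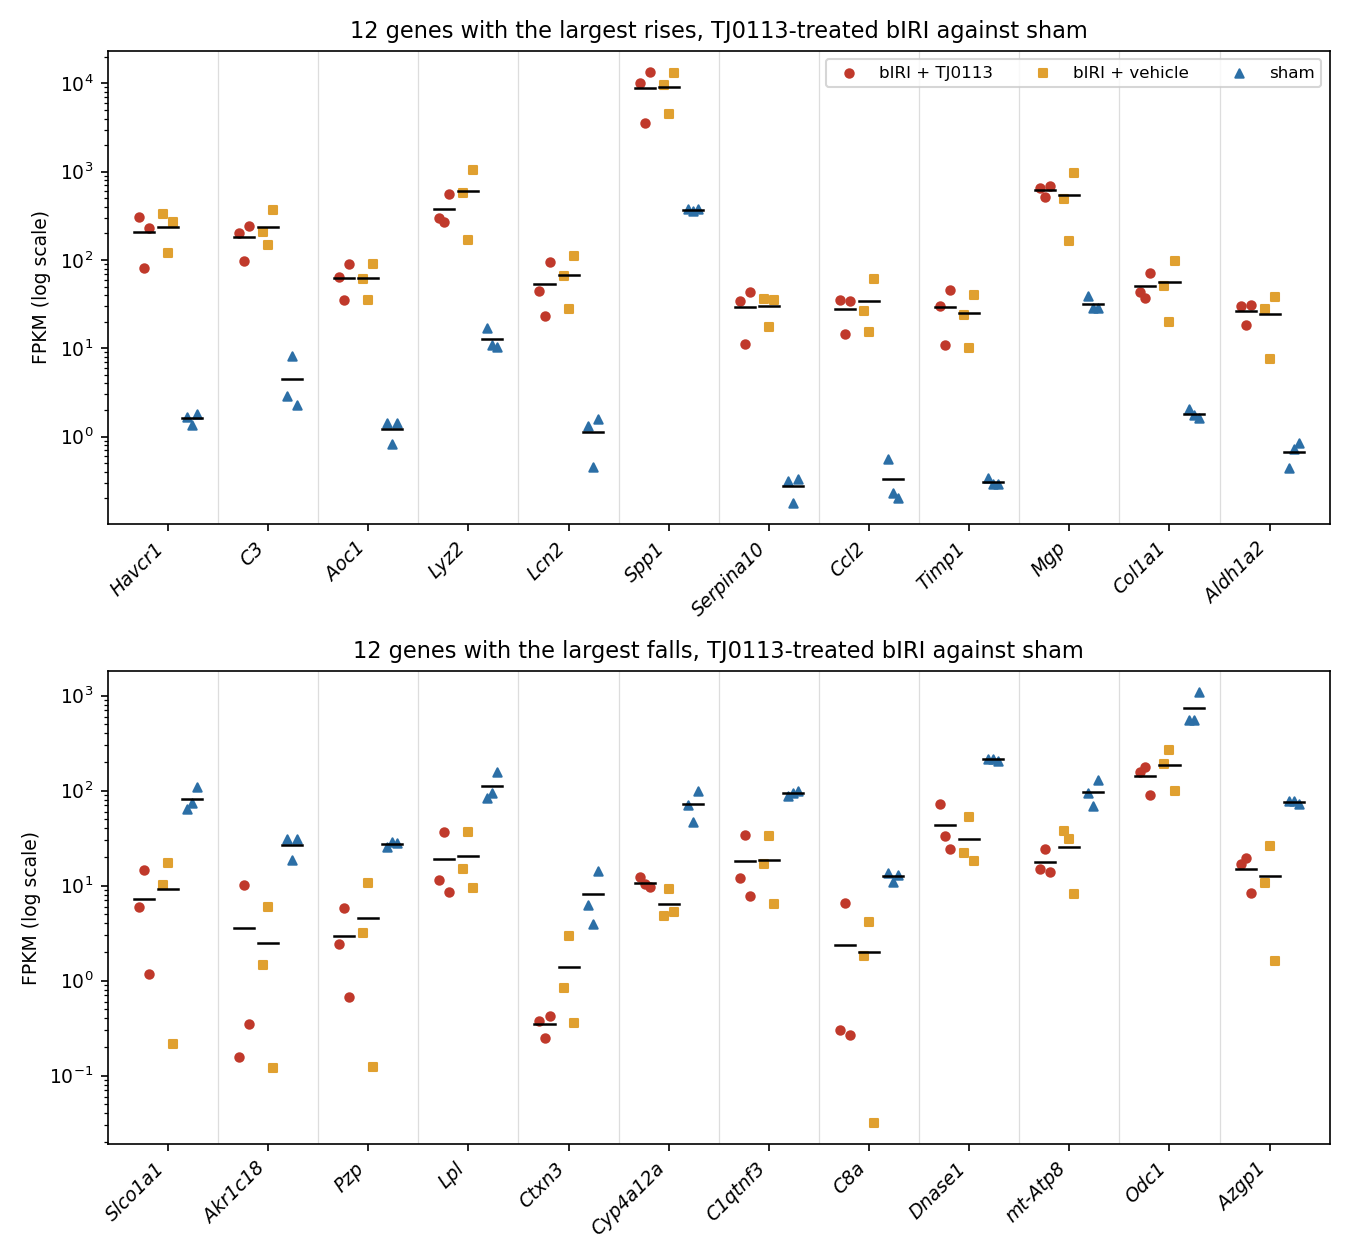
FPKM of each library on a log axis for the 12 largest rises (upper panel) and the 12 largest falls (lower panel), with TJ0113-treated bIRI, vehicle-treated bIRI and sham side by side and a bar at each group mean (n = 3). Every TJ0113 value lies on one side of every sham value, which the rule for naming these genes required; TJ0113 library 2, the middle of the 3 red points, lies below the others for Havcr1 and above them for Akr1c18 and C8a.

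The largest falls included transporters, enzymes and secreted proteins, and Slco1a1, Cyp4a12a and Odc1 among them are also on the list of male-biased kidney genes. Slco1a1, an organic anion uptake carrier that depends on androgen in mouse kidney, had 5.89, 14.6 and 1.18 FPKM with TJ0113 against 63.3, 73.6 and 110.0 in sham (log2 change -3.98 ± 0.97, SE). Cyp4a12a, an androgen-dependent fatty acid hydroxylase, had 12.2, 10.3 and 9.76 FPKM with TJ0113 against 71.1, 46.1 and 99.6 in sham (-2.84 ± 0.29), and it can share reads with its close paralog Cyp4a12b. Odc1, the first enzyme of polyamine synthesis, had 157, 177 and 88.8 FPKM with TJ0113 and 554, 557 and 1081 in sham (-2.61 ± 0.42). All 3 genes were lower in every TJ0113 library than in every sham library, which the rule for naming the falls required. Lpl, which releases fatty acids from lipoproteins and is also made by fat cells, had 11.5, 36.8 and 8.49 FPKM with TJ0113 and 82.8, 94.7 and 156 in sham (-2.97 ± 0.57). Sham library 2, the one richest in fat markers, was not the highest for Lpl, and the change without it was -3.05. In the TJ0113 group Lpl and the summed fat markers (26.6, 93.7 and 17.3 FPKM) were both highest in library 2 and lowest in library 3. Whether fat in the tissue had a part in the Lpl values was not tested.

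Dnase1, the secreted nuclease that degrades extracellular DNA, had 71.5, 33.1 and 24.3 FPKM with TJ0113 and 214, 217 and 207 in sham (-2.69 ± 0.44). Akr1c18, a hydroxysteroid dehydrogenase, had 0.155, 10.2 and 0.345 FPKM with TJ0113 against 30.9, 18.5 and 30.8 in sham (-3.65 ± 0.87), and C8a, a chain of the complement membrane attack complex, 0.299, 6.51 and 0.269 FPKM with TJ0113 against 13.7, 10.99 and 12.8 in sham (-2.80 ± 0.72). In both, TJ0113 library 2 was far above the other 2 treated libraries. The other falls were Pzp, a protease-binding protein (-3.32 ± 0.75), Ctxn3 (-2.86 ± 0.45), C1qtnf3, a secreted C1q-related protein (-2.83 ± 0.58), mt-Atp8, a mitochondrially encoded ATP synthase subunit (-2.65 ± 0.50), and Azgp1, a secreted zinc-binding glycoprotein (-2.61 ± 0.69). Adjusted p (limma, Benjamini-Hochberg) lay between 0.00481 for Cyp4a12a and 0.0306 for Azgp1. Ctxn3, Cyp4a12a, Dnase1 and Odc1 kept their calls in all 22 other settings, whereas Slco1a1, Akr1c18, Pzp, Lpl, C1qtnf3, C8a, mt-Atp8 and Azgp1 each lost theirs without TJ0113 library 3, and all of these but Lpl and mt-Atp8 also without sham library 2 or 3. Predicted and unnamed genes were left out of both sets.

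Promoter windows of 300 bases (250 before to 50 after the annotated start, RefSeq, GRCm38.p6) were at hand for 8 of the 12 rises and 8 of the 12 falls. They were searched on both strands for 4 motifs. TGANTCA, a loosened form of the site of AP-1 (a dimer of FOS and JUN proteins) with any base in the middle, was in the windows of Havcr1 and Aoc1 among the 8 rises and in 0 of the 8 falls, against 6.45 percent of the 10714 tested genes with a window. The match of Havcr1 reads TGAATCA, which is not the usual AP-1 site. The usual site, TGACTCA on either strand, was in 1 rise, Aoc1, and 0 falls, against 4.73 percent of tested genes, a search added after the data were seen. GTTAATNAT, the site of the tubule factor HNF1, was in 1 fall, Pzp, against 0.7 percent of tested genes. GGGANTTCC for NF-kB and CAAAGTCCA for HNF4 were in none of the 16, against 2.6 and 0.588 percent. The windows of the rise and the fall with the largest change that held a motif are shown to place those letters, in capitals. In Havcr1 (chr11:46750918-46751217, plus strand; 1 of 3 windows of the gene) the match begins 10 bases after the start, and in Pzp (chr6:128526671-128526970, minus strand) it lies 202 bases before it and reads on the opposite strand. A match describes letters only.
Havcr1: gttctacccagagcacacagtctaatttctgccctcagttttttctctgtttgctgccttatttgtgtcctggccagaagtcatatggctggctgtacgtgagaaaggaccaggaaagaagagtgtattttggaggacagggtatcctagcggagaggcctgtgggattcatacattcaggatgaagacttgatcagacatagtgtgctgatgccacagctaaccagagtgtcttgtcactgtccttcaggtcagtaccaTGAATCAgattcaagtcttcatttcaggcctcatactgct
Pzp: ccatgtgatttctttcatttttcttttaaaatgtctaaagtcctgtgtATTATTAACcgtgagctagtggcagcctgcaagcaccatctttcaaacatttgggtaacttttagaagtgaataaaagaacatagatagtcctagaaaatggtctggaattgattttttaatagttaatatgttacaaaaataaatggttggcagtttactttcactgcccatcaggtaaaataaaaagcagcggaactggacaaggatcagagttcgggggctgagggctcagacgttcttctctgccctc

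Genes that mark injured tubule cells stayed high as a group. Of 26 tubular injury markers 23 rose and 0 fell with TJ0113 against sham, with a median log2 change of 2.15 relative to the median gene, where all tested genes have 0 by definition, and against 28.9 percent of all tested genes called higher and 5.92 percent called lower. Clu, the chaperone clusterin, had 287, 333 and 382 FPKM with TJ0113 and 62.97, 64.3 and 76.97 in sham (2.01 ± 0.27), and Cd44, the hyaluronan receptor, 10.1, 5.13 and 11.1 FPKM with TJ0113 and 0.193, 0.244 and 0.123 in sham (2.72 ± 0.36). Krt20, a keratin that appears in damaged tubules, had 25.7, 8.26 and 24.1 FPKM with TJ0113 and 0.198, 0.783 and 0.254 in sham (3.46 ± 0.50). Claudins of tight junctions were higher as well, with Cldn3 at 1.96 ± 0.31, Cldn7 at 1.60 ± 0.26 and Cldn4 at 2.06 ± 0.42. Across 20 keratins and junction genes 8 rose (4 without TJ0113 library 3 and 12 without vehicle library 2) and 1 fell, the collecting duct claudin Cldn8 (-0.98 ± 0.20; call lost without TJ0113 library 1 or 3 or sham library 1 or 3).

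Failed-repair genes rose in 22 of 29 members, with 0 lower in the values as deposited and a median of 1.25. Vcam1, the adhesion molecule by which failed-repair tubule cells are usually recognised, had 31.5, 13.6 and 34.3 FPKM with TJ0113 and 0.846, 0.633 and 0.4504 in sham. All 3 treated libraries were above all sham libraries, and the log2 change was 3.71 ± 0.38 (SE; limma, Benjamini-Hochberg adjusted p = 0.00287). Traf1, an adaptor of TNF receptors, had 2.52, 2.23 and 3.18 FPKM with TJ0113 against 0.371, 0.263 and 0.271 in sham (1.22 ± 0.19). Members called higher numbered 13 without TJ0113 library 3 and 26 without vehicle library 3.

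Genes of the mature proximal tubule mostly lay below the median gene. Of 38 transporters 8 fell and 2 rose, against 5.92 percent of all tested genes called lower and 28.9 percent called higher. Of the 38, 34 were below the median gene, with a median of -1.10 (-0.70 without TJ0113 library 3). Lrp2, the endocytic receptor megalin, had 69.6, 72.4 and 33.7 FPKM with TJ0113 and 145, 201 and 143 in sham, separate in all libraries (-1.79 ± 0.34; limma, Benjamini-Hochberg adjusted p = 0.0135; call lost without sham library 2). The basolateral bicarbonate transporter Slc4a4 fell as well (-1.11 ± 0.19), as did Slc9a3, the apical sodium-proton exchanger (-1.18 ± 0.21), and both calls were lost without TJ0113 library 3 or sham library 2. Both rises were in sodium-coupled anion carriers. Slc13a1, which takes up sulfate, had 99.2, 68.2 and 85.95 FPKM with TJ0113, 49.6, 64.01 and 50.6 with vehicle and 39.1, 45.6 and 37.8 in sham (0.76 ± 0.17), and Slc13a2, which takes up citrate, 44.4, 24.4 and 25.1 FPKM with TJ0113, 14.9, 27.6 and 21.2 with vehicle and 17.3, 15.99 and 14.1 in sham (0.63 ± 0.26). With median-ratio scaling neither rose, and Slc13a2 also lost its call without TJ0113 library 1 or 3 or any sham library. Slc34a1 (-0.74, adjusted p = 0.286, limma) and the glucose transporter Slc5a2 (-0.71, adjusted p = 0.306) did not pass. Transporters called lower numbered 17 under median-ratio scaling, and they numbered 0 without sham library 2 and 17 without vehicle library 3.

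Of 43 proximal tubule enzymes 9 fell and 3 rose, with a median of -1.0 (-0.62 without TJ0113 library 3; members lower: 1 without TJ0113 library 3, sham library 2 or sham library 3 and 19 without vehicle library 3). Acsm1, a medium-chain acyl-CoA ligase, had 57.4, 55.96 and 31.6 FPKM with TJ0113 and 135, 129.9 and 117 in sham (-1.69 ± 0.29). The 3 rises went against the list. Cyp4a14, a fatty acid hydroxylase known as a target of the lipid sensor PPAR-alpha, had 103, 69.3 and 64.3 FPKM with TJ0113, 161, 226 and 41.3 with vehicle and 3.45, 5.204 and 6.44 in sham (3.46 ± 0.53). Cyp27b1, which activates vitamin D, had 10.4, 9.52 and 12.6 FPKM with TJ0113 and 1.16, 1.302 and 1.92 in sham (2.01 ± 0.33). Gsta2, a glutathione transferase, had 422, 208 and 333 FPKM with TJ0113 against 93.97, 97.2 and 61.8 in sham (1.62 ± 0.28). Cyp4a14 and Gsta2 have close paralogs with which they can share reads.

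Among 20 transcription factors and coactivators of the proximal tubule 2 fell and 2 rose, against 5.92 percent of all tested genes called lower and 28.9 percent called higher. Hnf4a, the nuclear receptor that keeps the segment mature, had 137, 127 and 95.98 FPKM with TJ0113 and 190.1, 227 and 189 in sham (-1.02 ± 0.21), and Ppargc1a, a coactivator of mitochondrial genes, 5.53, 7.39 and 5.82 FPKM with TJ0113 and 10.2, 9.73 and 9.81 in sham (-0.86 ± 0.14). Ppara, the lipid sensor, had 5.12, 2.82 and 3.32 FPKM with TJ0113 and 6.51, 8.604 and 4.33 in sham (limma, Benjamini-Hochberg adjusted p = 0.074). The rises were Cebpa (0.55 ± 0.21) and Foxc1 (0.45 ± 0.23), both lost with median-ratio scaling and quantile normalization, where 7 and 5 members fell. All 4 calls ended without TJ0113 library 3 or sham library 3. The call of Cebpa was also lost without TJ0113 library 1, and that of Foxc1 without TJ0113 library 2 or vehicle library 1. All but Cebpa lost theirs without sham library 2, and all but Ppargc1a without sham library 1.

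Of 19 genes with male-biased kidney expression 6 fell and 1 rose, with a median of -1.82. Hsd17b11, a hydroxysteroid dehydrogenase, had 43.7, 62.3 and 32.5 FPKM with TJ0113 against 108, 133 and 164 in sham (-1.82 ± 0.26), and the epoxygenase Cyp2j13 62.3, 43.5 and 33.5 FPKM with TJ0113 against 98.2, 113 and 126 in sham (-1.56 ± 0.33; call lost without TJ0113 library 3, sham library 2 or sham library 3). The rise was that of the glutathione transferase Gsta4 (0.65 ± 0.31), lost under all 4 other scalings and without any TJ0113 or sham library or vehicle library 1. The list's mean log2 level relative to sham was -1.32, -0.88 and -2.08 in TJ0113 libraries 1 to 3, lowest in library 3, and its lower members numbered 3 without TJ0113 library 3, sham library 2 or sham library 3 and 12 without vehicle library 3.

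**Figure D3:**
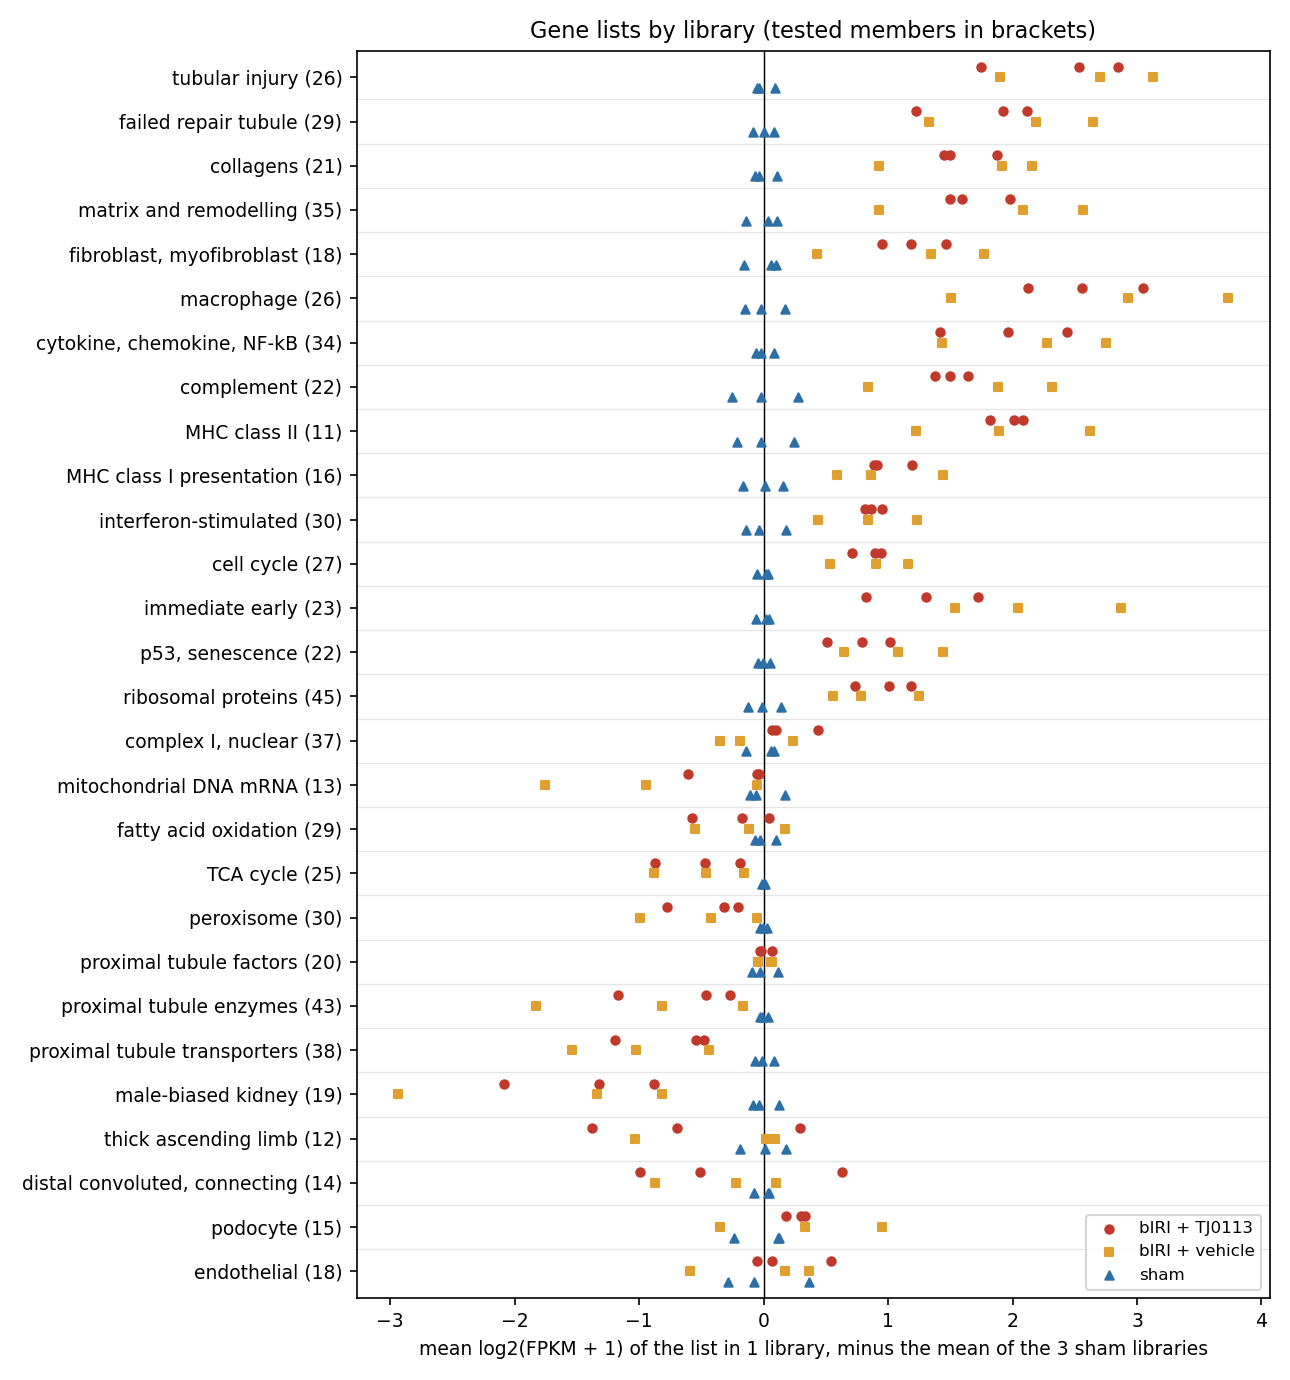
Each point is 1 library: the mean of log2(FPKM + 1) over the tested members of a gene list, minus the mean of that value in the 3 sham libraries, with TJ0113 above vehicle above sham in each row. These values are not set relative to the median gene. Injury, matrix and macrophage lists lie above sham in all clamped libraries, proximal tubule enzymes and transporters lie below it, and TJ0113 library 2 is the treated point above 0 for the thick ascending limb and the distal convoluted tubule.

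Scar matrix genes were raised across collagens, their modifying enzymes and matrix proteins. Of 21 collagen genes 16 rose and 2 fell (median 1.37). Col3a1, the type III collagen of interstitial scar, had 34.9, 40 and 68.2 FPKM with TJ0113 and 2.61, 2.37 and 1.98 in sham (3.56 ± 0.48). Basement membrane collagens Col15a1 (2.52 ± 0.40) and Col18a1 (1.63 ± 0.27) rose as well. The falls were Col4a3 and Col4a4, chains of the mature glomerular basement membrane, with 14.8, 20.4 and 14.3 FPKM for Col4a3 with TJ0113 against 33.7, 35.1 and 39.1 in sham (-1.35 ± 0.19) and -0.94 ± 0.17 for Col4a4, whose call was lost without TJ0113 library 1 or 3 or sham library 2 or 3. In the list of other matrix and remodelling genes 29 of 35 rose (15 without TJ0113 library 3 and 33 without vehicle library 2) and 1 fell, with a median of 1.41. Fibronectin, Fn1, had 14.7, 19.9 and 20.1 FPKM with TJ0113 and 1.61, 1.69 and 1.17 in sham (2.68 ± 0.43), and the matrix proteases Mmp2 and Mmp14 were at 2.67 ± 0.46 and 2.51 ± 0.44. The fall was Timp3, a matrix-bound protease inhibitor, with 52.01, 41.98 and 20.7 FPKM with TJ0113 against 120.4, 136 and 127 in sham (-2.07 ± 0.29).

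Of 18 genes of fibroblasts and myofibroblasts, the cells that lay down matrix, 12 rose and 0 fell (median 0.80; 7 with quantile normalization; 4 without TJ0113 library 3, sham library 2 or sham library 3 and 14 without vehicle library 2 or vehicle library 3). Pdgfrb, the receptor that marks pericytes and fibroblasts, had 23.6, 19.8 and 25.2 FPKM with TJ0113 and 6.86, 5.88 and 4.64 in sham (1.56 ± 0.36), Thy1 was at 2.0 ± 0.35, and Acta2, the smooth muscle actin of myofibroblasts, had 29.1, 30 and 47.6 FPKM with TJ0113 against 10.4, 10.1 and 9.31 in sham (1.44 ± 0.44; call lost without TJ0113 library 3, sham library 2 or sham library 3). Ligands that act on these cells were higher too. Tgfb1 had 9.37, 6.498 and 10.2 FPKM with TJ0113 and 1.67, 1.102 and 1.003 in sham (1.83 ± 0.35), Pdgfb was at 1.72 ± 0.37, and the Notch targets Heyl and Hes1 were at 1.05 ± 0.25 and 0.82 ± 0.21. In that list of 29 TGF-beta, Wnt, Notch and growth factor genes 13 rose, 44.8 percent, against 28.9 percent of all tested genes called higher. None fell, and the median was 0.42. Members higher numbered 5 without TJ0113 library 3 and 20 without vehicle library 2.

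Macrophage genes were the immune group with the largest median, 2.23, and 23 of 26 rose. C1qa, a chain of complement C1q made mainly by macrophages, had 89.8, 68.9 and 149.8 FPKM with TJ0113, 109, 37.5 and 226 with vehicle and 7.89, 6.43 and 5.78 in sham (3.43 ± 0.55). The endotoxin co-receptor Cd14 had 33.8, 15.7 and 45.9 FPKM with TJ0113 against 1.904, 1.499 and 1.39 in sham (3.28 ± 0.44). The defining receptor Adgre1 (F4/80) had 5.32, 5.08 and 5.18 FPKM with TJ0113 and 0.981, 0.488 and 0.626 in sham. None of the treated libraries overlapped sham for these 3 genes, as held for 65.1 percent of all tested genes. Genes of MHC class II and dendritic cells rose in 10 of 11 members (median 1.67), with the invariant chain Cd74 at 469, 434 and 501 FPKM with TJ0113 against 75.4, 53.8 and 45.4 in sham (2.75 ± 0.40) and H2-Ab1 at 2.70 ± 0.38. Among 34 genes for cytokines, chemokines and NF-kB proteins 28 rose (median 1.92), among them Cx3cl1, the membrane-bound chemokine fractalkine (1.52 ± 0.23). The 1 member that fell was Ccl28, a chemokine of mucosal epithelium (-2.48 ± 0.37).

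Complement genes rose in 17 of 22 members and fell in 3 (median 1.62; members higher: 9 without TJ0113 library 3 and 17 in 4 of the 9 fits without 1 library). Cfi, the protease that inactivates C3b, had 26.4, 9.34 and 26.4 FPKM with TJ0113 and 2.08, 2.75 and 1.81 in sham (2.37 ± 0.38). The 3 falls were Cfb, the protease of the alternative pathway, at 2.14, 1.48 and 0.896 FPKM with TJ0113 against 5.68, 8.797 and 5.53 in sham (-1.88 ± 0.24), the decay-accelerating factor Cd55 (-1.17 ± 0.23) and C8a, the calls of Cd55 and C8a being lost without TJ0113 library 1 or 3 or sham library 2 or 3, and that of C8a also without sham library 1. Interferon-stimulated genes rose in 23 of 30 members (median 0.73; 11 without sham library 2 or sham library 3 and 24 without vehicle library 2 or vehicle library 3), with Isg15, a ubiquitin-like modifier, at 9.34, 12.3 and 9.75 FPKM with TJ0113 against 4.26, 2.33 and 2.35 in sham (1.29 ± 0.27) and the antiviral genes Oas2 and Mx1 at 0.98 ± 0.22 and 0.67 ± 0.17. Genes of MHC class I presentation rose in 11 of 16 members (median 1.0), with the peptide transporter Tap2 at 1.33 ± 0.24 and H2-K1, whose reads can be shared with other class I genes, at 1.37 ± 0.27.

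Many lymphocyte and neutrophil genes lay under the level filter. Tested were 12 of 19 T and NK cell genes, 6 of 12 B and plasma cell genes and 4 of 12 neutrophil genes, so small counts do not show a weaker change. T and NK cell genes rose in 8 of 12 tested members (median 0.49; 5 with quantile normalization; 1 without TJ0113 library 3, sham library 2 or sham library 3 and 11 without vehicle library 2), led by the chemokine Ccl5 with 8.86, 8.44 and 11.1 FPKM with TJ0113 and 1.53, 1.07 and 0.509 in sham (2.12 ± 0.27). The defining T cell gene Cd3e lay under the level filter, at 0.126, 0.295 and 0.188 FPKM with TJ0113 and 0.0367, 0.0391 and 0.0282 in sham, and Cd3d was at 0.49 ± 0.18. Of 6 tested B and plasma cell genes 1 rose, the immunoglobulin chain Ighm (1.23 ± 0.36). The calls of Cd3d and Ighm were lost without TJ0113 library 3, sham library 2 or sham library 3. Of 4 tested neutrophil genes 2 rose, Csf3r and S100a9, and 0 did without TJ0113 library 3 or any sham library. The neutrophil proteins S100a9 and S100a8 were highest in TJ0113 library 3. S100a9 had 6.5, 2.86 and 26.4 FPKM with TJ0113 and 1.201, 0.556 and 1.29 in sham (1.96 ± 0.75; limma, Benjamini-Hochberg adjusted p = 0.0458, lost under each other scaling and without TJ0113 library 1 or 3, vehicle library 1 or any sham library).

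Division and growth genes were higher, by small amounts on the log2(FPKM + 1) scale, which understates the change of low genes. Over the settings other than scaling and leaving out 1 library, the cell cycle median ran from 0.53 to 1.54. Cell cycle genes rose in 25 of 27 members, with a median of 0.58 (11 without sham library 2 and 25 without TJ0113 library 2, vehicle library 2 or vehicle library 3). Cdc20, an activator of the mitotic ubiquitin ligase, had 3.83, 3.69 and 3.84 FPKM with TJ0113 and 0.7805, 0.575 and 0.831 in sham (1.21 ± 0.16), Ccnb2, a mitotic cyclin, was at 1.43 ± 0.24, and the proliferation marker Mki67 had 3.21, 2.24 and 3.62 FPKM with TJ0113 against 0.417, 0.372 and 0.519 in sham (1.21 ± 0.24). Treated and sham libraries did not overlap for any of the 27, against 65.1 percent of all tested genes without overlap. The fall was Ccnd1, the G1 cyclin (-1.01 ± 0.20; call lost without TJ0113 library 1 or 3 or any sham library). Cytosolic ribosomal protein genes rose in 40 of 45 members (median 0.62; 21 with median-ratio scaling; 15 without TJ0113 library 3, sham library 2 or sham library 3 and 42 without vehicle library 3), with Rps28 at 1.90 ± 0.31 and Rps20 at 1.58 ± 0.26; these genes share reads with processed pseudogenes.

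Of 22 p53 targets and senescence genes 9 rose, 40.9 percent, against 28.9 percent of all tested genes called higher. Their median was 0.33, and 0.19 without TJ0113 library 3. Members higher numbered 4 without TJ0113 library 3 and 14 without vehicle library 2. Phlda3, a p53-induced inhibitor of AKT, had 12.1, 11.3 and 22.8 FPKM with TJ0113 and 2.68, 3.25 and 1.86 in sham (1.88 ± 0.34), the pore-forming Bax was at 1.05 ± 0.23, and Gdf15, a secreted stress hormone, had 28.2, 9.22 and 32.3 FPKM with TJ0113, 31.8, 34.01 and 83.9 with vehicle and 4.02, 3.27 and 2.11 in sham (2.15 ± 0.49). The cell cycle inhibitor Cdkn1a (p21) had 7.42, 2.71 and 10.4 FPKM with TJ0113 and 0.698, 0.784 and 0.696 in sham (1.78 ± 0.46; call lost without TJ0113 library 3, sham library 2 or sham library 3). Genes of the integrated and endoplasmic reticulum stress responses moved both ways, with 7 of 21 higher, near the 28.9 percent of all tested genes. Members higher numbered 3 under median-ratio scaling, 2 under quantile normalization, 1 without sham library 2 or sham library 3 and 10 without vehicle library 2. The 1 lower member was the glycoprotein degradation factor Edem1 (-0.99 ± 0.14). The leucine sensor Sesn2 was at 0.39 ± 0.12 and the mTOR inhibitor Ddit4 at 0.99 ± 0.28, with calls lost under both of those scalings for Sesn2 and without sham library 2 or 3 for Ddit4.

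Fuel metabolism genes of the tubule mostly lay below the median gene, and 5.92 percent of all tested genes were called lower. All 25 genes of the tricarboxylic acid cycle and pyruvate dehydrogenase were below it, with a median of -0.70, and 6 fell (12 with median-ratio scaling; 0 without sham library 2 or sham library 3 and 10 without TJ0113 library 2 or vehicle library 3). Pdha1, a subunit of pyruvate dehydrogenase, had 68.03, 71.3 and 40.2 FPKM with TJ0113 and 115, 133 and 123 in sham (-1.34 ± 0.24), and Sucla2, a subunit of succinyl-CoA ligase, was at -1.35 ± 0.26; both calls were lost without sham library 2 or 3, and that of Sucla2 also without TJ0113 library 3. Peroxisomal genes fell in 6 of 30 members (median -0.67; 13 with median-ratio scaling; 0 without sham library 3 and 14 without vehicle library 3), with Agps, an enzyme of ether lipid synthesis, at 14.7, 21.4 and 8.56 FPKM with TJ0113 against 41.4, 44.5 and 54.3 in sham (-1.92 ± 0.35; call lost without sham library 3).

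Fatty acid oxidation genes fell in 5 of 29 members and rose in 4, with a median of -0.58. Cd36, which carries fatty acids into the cell and is also made by fat cells, had 44.9, 55.4 and 16.1 FPKM with TJ0113 and 147, 186 and 207 in sham (-2.60 ± 0.57; -2.56 and no longer called without sham library 2, nor called without TJ0113 library 3 or sham library 3). Acsl1, which activates them, was at -0.93 ± 0.17 (call lost without TJ0113 library 3 or sham library 2). The rises included Fabp1, a fatty acid binding protein with 1.57, 2.95 and 2.23 FPKM with TJ0113 and 0.567, 0.2099 and 0.364 in sham (0.96 ± 0.25), Acot2, a mitochondrial thioesterase (0.50 ± 0.18), and Etfb, an electron carrier (0.51 ± 0.21). Acot2 and Etfb were not called with median-ratio scaling, quantile normalization, or without sham library 2 or 3, and Etfb also not without TJ0113 library 2 or 3 or sham library 1. Members lower numbered 10 under median-ratio scaling, and they numbered 0 without TJ0113 library 3 or sham library 2 and 10 without vehicle library 3. Genes of glycolysis and the hypoxia response rose in 6 of 27 members, a smaller share than the 28.9 percent of all tested genes (3 with median-ratio scaling, where 3 fell, and 2 with quantile normalization; 1 without TJ0113 library 3, sham library 1 or sham library 2 and 7 without vehicle library 2 or vehicle library 3), with the phosphofructokinase Pfkp at 0.48 ± 0.14 and the glucose transporter Slc2a1 at 0.36 ± 0.20, a call lost under each other scaling and without TJ0113 library 2 or 3 or any sham library.

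The messenger RNAs encoded by mitochondrial DNA did not pass the test in 12 of 13 cases, and mt-Atp8, given above, was the exception. Mitochondrially encoded genes held 19.25, 24.26 and 25.52 percent of all FPKM in the TJ0113 libraries, 18.6, 23.31 and 12.12 percent with vehicle and 25.51, 27.71 and 27.02 percent in sham. The list's median was -0.52 and turned to 0.21 with quantile normalization. mt-Nd6, the complex I subunit on the light strand, had 1651, 2332 and 2017 FPKM with TJ0113, 810.1, 1517 and 836 with vehicle and 1368, 1514 and 1438 in sham. Treated values were above all sham values, and the change relative to the median gene was 0.20 ± 0.32. The change as fitted, before that subtraction, did not pass (limma, Benjamini-Hochberg adjusted p = 0.275). mt-Co1, a complex IV subunit and the most abundant of those named here, had 20372, 26705 and 29389 FPKM with TJ0113 against 27624, 30570.0 and 29592 in sham, with overlap, and mt-Nd1, of complex I, 12625, 15991 and 17618 FPKM with TJ0113 against 18786, 20317 and 21279 in sham.

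Nuclear-encoded respiratory chain genes lay close to the median gene. Of 37 complex I subunits 7 rose, a smaller share than the 28.9 percent of all tested genes, and 1 fell. The median was -0.12 and turned to 0.12 with quantile normalization. Members that rose numbered 0 with median-ratio scaling, 12 with equal FPKM sums, 1 without sham library 2 and 13 without vehicle library 2. Ndufa3 had 93.8, 113 and 89.96 FPKM with TJ0113, 47.6, 81.04 and 59.5 with vehicle and 56.8, 45.9 and 50.01 in sham, and Ndufa7 53.5, 63.4 and 56.1 FPKM with TJ0113, 37.01, 53.4 and 49.04 with vehicle and 33.9, 27.3 and 31.4 in sham. Against sham these were 0.68 ± 0.20 and 0.62 ± 0.16, and the call of Ndufa3 was also lost without sham library 2. The fall was Ndufs1, the core iron-sulfur subunit, with 20.3, 23.3 and 15.3 FPKM with TJ0113 and 32.7, 35.7 and 33.97 in sham (-1.05 ± 0.23; call lost without TJ0113 library 1 or 3 or any sham library). Of 35 subunits of complexes III, IV and V 2 rose and 2 fell (median -0.14, 0.12 with quantile normalization), and leaving out TJ0113 library 3 or any sham library ended all 4 calls.

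Genes of mitophagy, the removal of damaged mitochondria, and of mitochondrial shape moved both ways, and their balance depended on scaling. Of 34 members 6 fell and 4 rose, against 5.92 percent of all tested genes called lower and 28.9 percent called higher. Under median-ratio scaling 17 fell and 0 rose, and under equal FPKM sums 3 fell and 3 rose (members lower: 0 without sham library 2 and 7 without TJ0113 library 2 or vehicle library 3). Opa1, which fuses inner membranes, had 11.1, 11.1 and 8.74 FPKM with TJ0113 and 16.1, 18.4 and 16.5 in sham (-0.94 ± 0.14; call lost without sham library 2). The mitochondrial deacetylase Sirt3 had 8.998, 10.4 and 7.65 FPKM with TJ0113 against 14.1, 14.6 and 12.9 in sham (-0.84 ± 0.18), and this call was lost without any of the 3 sham libraries, TJ0113 library 1 or 3, or vehicle library 1. The import channel Tomm40 rose (0.46 ± 0.12), but not with median-ratio scaling. The mitophagy kinase Pink1 had 80.9, 103 and 59.9 FPKM with TJ0113 and 102, 100.5 and 99.3 in sham, with overlapping libraries (limma, Benjamini-Hochberg adjusted p = 0.229).

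Few ferroptosis genes were called against sham. Of 21 drivers 2 rose and 3 fell, with a median of -0.25 (6 fell with median-ratio scaling; members lower: 0 without TJ0113 library 3 or sham library 2 and 3 in 4 of the 9 fits without 1 library). Slc39a8, a zinc and iron importer, had 1.55, 5.44 and 1.19 FPKM with TJ0113 and 10.8, 8.83 and 8.89 in sham (-1.93 ± 0.41), with TJ0113 library 2 highest of the treated. Both shares called higher, here and among the suppressors below, lie under the 28.9 percent of all tested genes. The calls of Slc39a8 and of Cybb, named next, were lost without TJ0113 library 1 or 3 or any sham library. The rises were Cybb, the phagocyte NADPH oxidase (1.32 ± 0.46), and Hmox1, the heme oxygenase that frees iron. Hmox1 had 40.2, 27.2 and 37 FPKM with TJ0113 and 17.8, 18.8 and 18.96 in sham (0.59 ± 0.17), a call lost with median-ratio scaling. Acsl4, which makes the lipids that are peroxidised, had 10.3, 7.73 and 10.2 FPKM with TJ0113, 20.5, 9.67 and 17.2 with vehicle and 6.37, 6.697 and 6.26 in sham. The treated libraries were above sham without passing the test (0.21 ± 0.24; limma, Benjamini-Hochberg adjusted p = 0.137).

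Among 28 suppressors of ferroptosis 5 rose and 0 fell (median -0.23; with median-ratio scaling 5 rose and 5 fell; members higher: 2 without TJ0113 library 3, sham library 2 or sham library 3 and 7 without vehicle library 2). The small heat shock protein Hspb1 had 81.9, 40.1 and 118 FPKM with TJ0113 and 5.51, 4.503 and 4.46 in sham (3.41 ± 0.46), and the iron exporter Slc40a1 9.86, 6.89 and 9.605 FPKM with TJ0113 and 4.41, 4.58 and 5.03 in sham (0.51 ± 0.18; call lost without TJ0113 library 3, sham library 2 or sham library 3). Gpx4, the peroxidase that clears lipid peroxides, had 411, 469 and 346 FPKM with TJ0113 and 383, 309 and 353 in sham, overlapping (-0.04 ± 0.24; adjusted p = 0.477, limma), and the ferritin heavy chain Fth1 overlapped too (-0.26 ± 0.30). The cystine importer Slc7a11 lay under the filter, at 0.0882, 0.0549 and 0.152 FPKM with TJ0113 and 0.0147, 0.0167 and 0.0165 in sham. Of 21 targets of the antioxidant factor NRF2 7 rose (3 with median-ratio scaling) and 0 fell, near the 28.9 percent of all tested genes called higher, with a median of 0.05 that turned to -0.06 with median-ratio scaling. Pgd, of the pentose phosphate pathway, was at 0.54 ± 0.14, and the efflux pump Abcc4 at 0.82 ± 0.25, lost with median-ratio scaling for Pgd and without TJ0113 library 3 or sham library 3 for Abcc4; members called numbered 3 without TJ0113 library 3 or sham library 3 and 9 without vehicle library 2 or vehicle library 3.

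Steroid and lysosome genes split. Of 21 cholesterol synthesis and uptake genes 4 fell and 5 rose, against 5.92 percent of all tested genes called lower and 28.9 percent called higher. Members that rose numbered 2 with median-ratio scaling, 1 without TJ0113 library 3 or sham library 3 and 6 without vehicle library 2 or vehicle library 3. Idi1, an isomerase of the pathway, had 2.99, 4.03 and 1.11 FPKM with TJ0113, 5.74, 6.49 and 2.62 with vehicle and 12.8, 13.2 and 15.8 in sham (-2.36 ± 0.35). It was called lower in all 22 other settings as well. Sc5d, a late desaturase (-0.95 ± 0.13), and Cyp51, the lanosterol demethylase (-1.95 ± 0.43; call lost without TJ0113 library 1 or 3 or any sham library), fell too, while the squalene synthase Fdft1 rose (0.42 ± 0.12). Of 23 lysosome and autophagy genes 10 rose and 2 fell, while 6 rose and 7 fell under median-ratio scaling (members higher: 4 without TJ0113 library 3 or sham library 2 and 11 without vehicle library 2 or vehicle library 3). The cathepsins Ctss (3.29 ± 0.59) and Ctsk (2.45 ± 0.47), proteases also found in macrophages and fibroblasts, rose.

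Markers of the other nephron segments differed between the treated libraries. Markers of the thick ascending limb had a mean log2 level relative to sham of -1.38, 0.29 and -0.70 in TJ0113 libraries 1 to 3, and those of the distal convoluted and connecting tubule -0.99, 0.63 and -0.51. Library 2 was above sham in both and the other treated libraries below it. Uromodulin, Umod, the main secreted protein of the thick limb, had 188, 817 and 286 FPKM with TJ0113 and 682, 489 and 594 in sham. Slc12a3, the thiazide-sensitive transporter, had 32.3, 197 and 83.99 FPKM with TJ0113 against 94.2, 122 and 109.6 in sham, and Pvalb, a calcium buffer of the early distal tubule, 0.1798, 14.99 and 0.523 FPKM with TJ0113 against 8.63, 9.45 and 10.97 in sham. Of 12 thick limb genes the claudin Cldn16 rose and the claudin Cldn10 fell. The call of Cldn10 was lost without sham library 3. That of Cldn16 was lost with no filter on low values, median-ratio scaling or quantile normalization, and without TJ0113 library 2 or 3 or any sham library. None of 14 distal and 13 intercalated cell genes was called with the values as deposited. With median-ratio scaling 1 distal and 4 intercalated cell genes fell, with quantile normalization 0 and 3, and with equal FPKM sums without mitochondrial genes 0 and 2. With equal FPKM sums 1 distal gene rose. Without TJ0113 library 2, 6 thick limb, 5 distal, 6 intercalated and 4 of 12 principal cell genes fell. Without TJ0113 library 1, 1 distal and 2 principal cell genes rose. The distal median was -0.58 with all libraries, -1.0 without TJ0113 library 2 and -0.21 without TJ0113 library 1. Aqp4, a basolateral water channel, fell with all libraries in (-2.09 ± 0.34). Whether the make-up of the dissected tissue had a part in these values, or in those of the proximal tubule lists, was not tested.

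Few podocyte and endothelial genes were called. Of 15 podocyte genes 1 rose and 1 fell. Nphs1, which encodes nephrin of the slit diaphragm, had 1.78, 2.51 and 2.04 FPKM with TJ0113 and 2.29, 2.61 and 1.41 in sham with overlap. Tcf21, a transcription factor of podocytes and stromal cells, rose (1.53 ± 0.45; call lost without TJ0113 library 3, sham library 2 or sham library 3). The fall was also lost without TJ0113 library 3 or sham library 2. Of 18 endothelial genes 3 rose, Nos3, Egfl7 and Sox17, a smaller share than the 28.9 percent of all tested genes. All 3 calls were lost with quantile normalization or without TJ0113 library 3, sham library 2 or sham library 3. Pecam1, the junction protein CD31, had 4.41, 6.96 and 4.32 FPKM with TJ0113 and 7.59, 4.71 and 3.88 in sham.

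Differences from sham were also measured in the vehicle group, which was clamped and had no compound. Both sets of differences use the same 3 sham libraries, so they are set side by side and no likeness between them is drawn. Against sham, 5676 genes (36.7 percent) were called in the vehicle group. The list medians with TJ0113 and with vehicle, each against sham, were 2.15 and 2.17 for tubular injury markers. They were 1.25 and 1.45 for failed-repair genes, 1.37 and 1.36 for collagens and 2.23 and 2.33 for macrophage genes. For proximal tubule transporters they were -1.10 and -1.26, and for proximal tubule enzymes -1.0 and -1.34. For immediate early genes they were 1.0 with TJ0113 and 1.79 with vehicle, and for messenger RNAs of mitochondrial DNA -0.52 with TJ0113 and -1.22 with vehicle.

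In the direct comparison of TJ0113 with vehicle, 0 genes passed (0 percent; limma, smallest Benjamini-Hochberg adjusted p = 0.796), and 927 had an unadjusted p under 0.05 (6 percent). The unadjusted count turned on single vehicle libraries: without vehicle library 2, 3702 genes had an unadjusted p under 0.05 and the smallest adjusted p was 0.0585, and without vehicle library 1 the number was 320. With library weights, where vehicle library 2 had the lowest weight (0.18), 468 genes passed. The estimates were wide. For Havcr1 the log2 difference between TJ0113 and vehicle was -0.29 ± 0.49 (SE), with a 95 percent interval of -1.40 to 0.81, for Col1a1 0.06 ± 0.48 with -1.01 to 1.13, and for Lrp2 0.07 ± 0.34 with -0.70 to 0.84. For Vcam1 it was -0.23 ± 0.38 with -1.09 to 0.62. The intervals of Havcr1, Col1a1 and Vcam1 pass a 2-fold difference on at least 1 side, and a missed threshold does not show that the groups are alike.

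Immediate early genes, which stimuli switch on within minutes, rose in 15 of 23 members with TJ0113 against sham (3 without TJ0113 library 3 or sham library 2 and 18 without vehicle library 3), and 23 of 23 with vehicle against sham. Jund had 22.3, 15.5 and 23.5 FPKM with TJ0113, 17.7, 16.9 and 31.7 with vehicle and 5.25, 4.26 and 5.38 in sham (1.57 ± 0.24 with TJ0113 against sham), and Atf3, a stress-induced repressor, 6.37, 3.53 and 9.23 FPKM with TJ0113, 21.3, 11.2 and 57.5 with vehicle and 0.4997, 0.532 and 0.667 in sham (1.90 ± 0.50; call lost without TJ0113 library 3, sham library 2 or sham library 3). All 23 members had a lower estimate with TJ0113 than with vehicle, and 10 had an unadjusted p under 0.05 in that comparison, against 3.69 percent of all tested genes with such a p and a lower estimate. The 20 keratin and junction genes, 12 principal cell genes and 9 adipocyte genes also all had lower estimates with TJ0113 than with vehicle, so the one-sided direction is not particular to immediate early genes. The growth factor response genes Fos and Egr1 were called with vehicle and not with TJ0113 in the values as deposited; with TJ0113 against sham, Fos was called in 7 and Egr1 in 4 of the 22 other settings. Fos had 4.23, 3.02 and 8.91 FPKM with TJ0113, 13.1, 17.2 and 41.1 with vehicle and 1.98, 2.07 and 1.09 in sham. Its TJ0113 libraries were above sham and below vehicle, at 0.89 ± 0.43 against sham (limma, Benjamini-Hochberg adjusted p = 0.063) and -1.90 ± 0.43 against vehicle (unadjusted p = 0.00155, limma). Egr1 had 11.1, 7.69 and 23.96 FPKM with TJ0113, 32.1, 22.6 and 67.4 with vehicle and 6.099, 6.82 and 3.04 in sham. RNA of these genes can rise within minutes of handling tissue, and the time from sacrifice to lysis is not given here, so a part of handling in their levels was not tested.

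On the log2 scale as fitted, not set relative to the median gene, genes with at least a 2-fold change (1 on that scale) called with vehicle against sham and not called with TJ0113 against sham numbered 201 of 1783. This count rests on passing a threshold in one comparison and not in the other, and no gene differed between TJ0113 and vehicle beyond the adjusted threshold. The 6 with the largest change under vehicle were Ankrd1, Ccn1, Pvalb, Fos, Ugt3a1 and Egr1, and Ankrd1, Ccn1 and Ugt3a1 were each called with TJ0113 in 6 of the 22 other settings. Ankrd1, a stretch-responsive cofactor, had 5.12, 2.58 and 14.2 FPKM with TJ0113, 22.4, 3.81 and 52.1 with vehicle and 1.11, 0.322 and 0.921 in sham, and Ccn1, a matricellular protein known as a target of the factor YAP, 40.7, 28.9 and 59.1 FPKM with TJ0113, 154, 48.2 and 351 with vehicle and 10.5, 15.1 and 12.4 in sham. For both genes every treated library was above every sham library (Ankrd1 1.72 ± 0.80, adjusted p = 0.0764; Ccn1 1.37 ± 0.59, adjusted p = 0.0561; limma, Benjamini-Hochberg). Ugt3a1, a glycosyltransferase of the proximal tubule, had 20.7, 56.03 and 7.71 FPKM with TJ0113, 22.1, 48.8 and 3.404 with vehicle and 90.2, 104 and 86.02 in sham.

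Among genes called with TJ0113 against sham, the smallest unadjusted p-values against vehicle on the lower side included those of Hspa1b, Sgk1, Rpl7a-ps3 and Tada2b. Hspa1b, an inducible heat shock protein whose reads can be shared with Hspa1a, had 9.63, 13.97 and 11.9 FPKM with TJ0113, 23.5, 24.4 and 34.4 with vehicle and 8.18, 5.31 and 8.44 in sham (TJ0113 minus vehicle -1.14 ± 0.21, unadjusted p = 0.000403, limma). Sgk1, a kinase induced by salt-retaining steroids, had 12.2, 16.5 and 26.1 FPKM with TJ0113, 61.96, 33.2 and 35.6 with vehicle and 9.32, 8.44 and 9.497 in sham (-1.22 ± 0.29, unadjusted p = 0.00205, limma). On the higher side were Pet100, Mir7025, Mlxipl, Krtcap2 and Gstp-ps. Pet100, an assembly factor of complex IV, had 9.68, 11.5 and 11.6 FPKM with TJ0113, 3.99, 7.05 and 7.16 with vehicle and 4.1, 3.64 and 3.92 in sham (0.79 ± 0.19, unadjusted p = 0.00233, limma), and Mlxipl, the carbohydrate-sensing transcription factor ChREBP, 70.6, 62.95 and 75.1 FPKM with TJ0113, 45.8, 55.03 and 45 with vehicle and 52.7, 50 and 52.9 in sham (0.51 ± 0.13, unadjusted p = 0.0034, limma). For Hspa1b, Sgk1, Pet100 and Mlxipl the TJ0113 and vehicle libraries did not overlap, which choosing genes by their smallest p against vehicle made likely. Rpl7a-ps3 and Gstp-ps are pseudogenes that share reads with their parent genes, and none of these genes passed adjustment over all genes against vehicle. The calls of Hspa1b, Sgk1 and Mlxipl against sham were lost with median-ratio scaling and without TJ0113 library 3 or any sham library, among other settings.

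**Figure D4:**
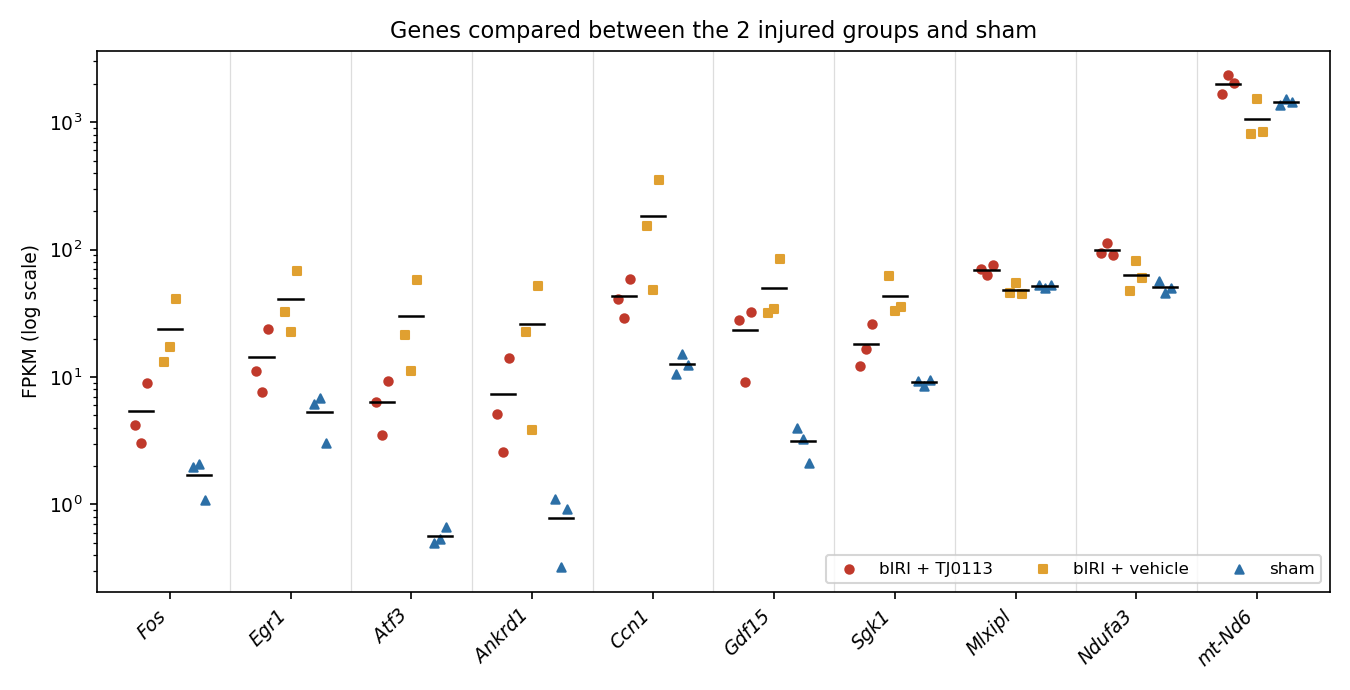
FPKM of each library on a log axis for 10 genes, with TJ0113-treated bIRI left of vehicle-treated bIRI left of sham and a bar at each group mean (n = 3). The treated means of Fos, Egr1 and Atf3 lie between those of vehicle and sham, and every treated value of Mlxipl, Ndufa3 and mt-Nd6 lies above both.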

How the data were processed

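Renal cortex RNA from 9 mice was sequenced as paired-end messenger RNA libraries. The authors deposited 1 table of FPKM values, which are fragments per gene scaled to transcript length and library size. HISAT2 is named in the submitters' processing notes without a version; the genome build, annotation and counter are missing from the sources used here. FPKM values multiplied by the exon length of GENCODE M21 fell on whole steps within 0.04 for 98.8 to 99.0 percent of low values, from which fragments per library were estimated. Of the gene identifiers, 33893 of 34669 matched a name. No count model was run, since the table holds FPKM.

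A mean of 0.5 FPKM or more was required and log2(FPKM + 1) was fitted in limma 3.58.1 (R 4.3.3) as 1 model of all 9 libraries with a mean-dependent prior variance, with Benjamini-Hochberg adjustment over 15453 genes, and calls at 0.05. Fold changes are on the log2(FPKM + 1) scale, which understates the change of low genes. FPKM does not carry counting error, and depth was estimated only. Adding 1 to FPKM, length scaling and unstated handling of reads shared by paralogs, overlapping genes or antisense genes can move values. On simulated data with 200 changed genes, the fit recovered 57 of 100 genes changed 2-fold and 86 of 100 changed 4-fold, with 4 false calls among 147. Far fewer genes were changed there than were called here, and none of them lay near the filter in sham. All groups had the same spread and genes varied independently, so these figures need not hold for the real libraries.

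Members and gene lists were chosen with earlier results of these data known. Some genes are on more than 1 list, such as C1qa among macrophage and complement genes and Vcam1 among failed-repair and cytokine genes. Counts of different lists are therefore not independent. Genes were named by a rule: the 12 largest rises and falls among called, non-overlapping, named genes; up to 4 members of each list by smallest p, with members that went against their list; a short set of marker genes; the 5 genes with the smallest unadjusted p on each side against vehicle among those called against sham; and the 6 largest changes called with vehicle and not with TJ0113. A few genes that the rule names are not reported here. Labels spell the compound TJ013 in places and the series text TJ0113, taken here as 1 compound. What equal replicate numbers share, such as a surgery day, is not given. Deviations of same-numbered libraries correlated at -0.15, 0.03 and 0.03 between TJ0113 and sham. Between TJ0113 and vehicle they correlated at -0.06, 0.50 and 0.56, so a factor shared by number cannot be told from the labels. The main fit had no replicate term. Alternatives were other pseudocounts, filters, scalings, variance models, library weights, a replicate term, a fit of TJ0113 and sham alone and leaving out each library.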

Additional observations from a re-analysis of the deposited data

How the results depend on the processing

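Of 185 named genes called between TJ0113 and sham, 94 kept their calls in every other setting in which they were tested (21 or 22 settings) and 0 changed direction. Genes called between TJ0113 and sham numbered 5384, against 3205 with no filter on low values and 9359 with library weights, and between 4077 and 7806 in the other settings that kept all 9 libraries or fitted TJ0113 and sham alone. Genes called higher numbered 2667 with no filter, 2672 under median-ratio scaling, 2391 under quantile normalization and 7408 with library weights. Genes called lower numbered 538 with no filter, 3165 under median-ratio scaling, 2854 under quantile normalization, 1951 with library weights and 1484 in a fit of TJ0113 and sham alone. Against vehicle, TJ0113 gave 468 called genes with library weights. Vehicle against sham gave 2933 with no filter and 9737 with library weights.

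Leaving out 1 library gave 1272 (sham library 2) to 7313 (vehicle library 2) genes called between TJ0113 and sham, with 1429 without TJ0113 library 3, 1469 without sham library 3, 2921 without sham library 1 and 3342 without TJ0113 library 1. Higher genes ran from 1106 to 6002, lower genes from 166 to 1311, genes called against vehicle from 0 to 0, and vehicle against sham from 862 to 8789. Where a library is left out, its group's 2 remaining libraries are taken to vary like the other groups. The shared spread changes too, so a lost call need not mean that the change itself rests on that library. The median of the proximal tubule transporters, for example, was -1.10 with all libraries and -0.99 without sham library 2, where 0 members were called lower. The replicate block, for numbers whose meaning is not given, gave 6062 calls between TJ0113 and sham and 0 between TJ0113 and vehicle. Same-numbered TJ0113 and vehicle libraries had deviations that correlated at -0.06, 0.50 and 0.56. In simulated data with equal spread in all groups and changed genes well above the filter, 57 of 100 genes changed 2-fold were recovered. That share need not hold for the real libraries. Depth limits genes under 0.5 FPKM, which were not tested.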
